A study of Homo sapiens with 6 samples.

Results

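The genes of MHC class I antigen presentation described here are 9 of the 58336 genes in the count table, chosen by name for their role and found by their Ensembl identifiers. They are 4 class I heavy chains (HLA-B, HLA-C, HLA-E and HLA-F), the light chain B2M, both subunits of the peptide transporter (TAP1 and TAP2), the loading factor TAPBP and the trimming enzyme ERAP1. A2780, a human ovarian cancer cell line, was given DMSO vehicle or 6 µM TH588, with 3 libraries (A, B and C) for each treatment. The labels give 48 h for TH588 and no time for DMSO. TH588 is a first-generation mitotic inhibitor of MTH1 (mMTH1i), the enzyme that clears oxidized nucleotides from the nucleotide pool. Both groups were the same parental line in insulin-supplemented medium. Apart from the unstated DMSO time, the only labelled difference was the drug, tested at 1 dose and 1 time.

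Class I molecules display short peptides from the cell's own proteins to CD8 T cells and natural killer cells. Proteasomes cut the proteins, the TAP1/TAP2 heterodimer carries the peptides into the endoplasmic reticulum, ERAP1 trims them, and tapasin (encoded by TAPBP) holds an empty heavy chain bound to beta-2 microglobulin next to the transporter until a peptide fits. Interferons and NF-kB are known to raise transcription of most of these genes, and many tumors reduce it.

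Total counts ranged from 77634048 to 99074175 in 5 libraries and reached 28537837 in TH588 replicate A, in which the small nucleolar RNA SNORD3A also took 21.94% of counts, against 7.68% to 12.95% in the others. All 9 genes passed the filter on low counts, which kept 15844 genes. Of those, 3839 (24.2%) were called higher after TH588 and 4013 (25.3%) lower at an adjusted p under 0.05 (edgeR quasi-likelihood test, Benjamini-Hochberg over all genes tested), or 4248 and 2786 when only library size was normalized for. A called gene was therefore common. Among markers that check the cell type, KRT7, KRT19, CDH1, PAX8 and WT1, named after their values were seen, had at most 7 counts in any library. Others of the same list were detected with DMSO, such as KRT18 at 3.56 ± 0.373 CPM and MUC1 at 2.82 ± 0.179 CPM. The list therefore does not settle how far the labelled ovarian epithelial origin shows. The 13 epithelial and ovarian markers together rose from a range of 6.46 to 7.66 CPM (counts scaled to the normalized library size) with DMSO to 15.5 to 16.3 with TH588. All 3 that could be tested were higher (EPCAM, KRT18 and MUC1), against 24.2% of all genes tested. The T-cell genes CD3E, CD3D and CD2 had 0 counts in every library. The 14 leukocyte markers summed to 1.57 to 2.22 CPM with DMSO and 2.56 to 3.06 CPM with TH588. Of these, 6 were tested and 3 were higher, against 24.2% of all genes tested. The 3, CD79A, CD14 and ITGAX, named after their values were seen, had at most 19 counts in any DMSO library. They passed the filter on low counts through the TH588 libraries, which left little room for a call other than higher. The 10 stromal and endothelial markers, nearly all of whose counts came from the collagen gene COL3A1, summed to 1591 to 1919 CPM and 1882 to 2622 CPM. Of these, 3 of 6 tested were higher, against 24.2% of all genes tested. The part of these shifts in the results below was not tested.

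After TH588, 6 of the 9 genes were called higher (24.2% of all tested genes were), 1 was lower (25.3% of all tested genes were) and 2 were not called. TAP1 rose most and TAP2, which encodes its partner subunit, fell, while the heavy chains HLA-B and HLA-C and the loading factor TAPBP rose by 1.61-fold to 1.87-fold. HLA-E and ERAP1 rose by about 1.2-fold. Every TH588 library lay above every DMSO library for 7 of the 9, against 28.7% of all genes tested, and below for TAP2, against 29.0% of all genes tested. The median log2 fold change of the 9 was 0.68, and that of all genes tested was 0.02 (quartiles -0.38 and 0.49). The RNA came from bulk cultures, in which a change in the number of expressing cells and a change in RNA per cell cannot be told apart.

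**Figure D1:**
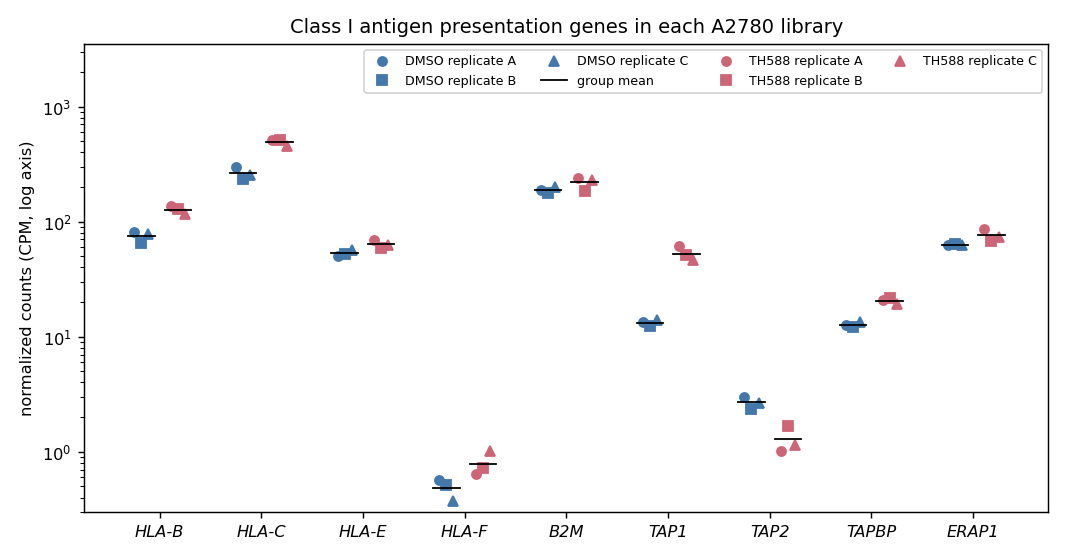
Normalized counts (CPM, log axis) of the 9 class I antigen presentation genes in each library, with DMSO in blue, TH588 in red, a symbol for each replicate letter and a black line at each group mean. TAP1 moved from 13.2 to 52.8 CPM, TAP2 moved the other way from 2.68 to 1.28 CPM, and only B2M overlapped between the groups.

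HLA-B and HLA-C encode classical heavy chains that present peptides to CD8 T cells and are ligands of killer-cell receptors. Both lie on the minus strand of chromosome 6 in the GRCh38 coordinates of the table. HLA-C (ENSG00000204525, chr6:31268749-31272130) had 298, 236 and 254 CPM with DMSO (replicates in the order A, B, C, here and for the other genes) and 509, 510 and 453 CPM with TH588. The means were 263 ± 31.7 and 491 ± 32.8 CPM (± SD, n = 3 in each group), and the log2 fold change was 0.90 (SE 0.10, adjusted p = 1.18e-05). HLA-B (ENSG00000234745, chr6:31269491-31357188) had 81.7, 65.8 and 78.5 CPM with DMSO and 137, 130 and 116 CPM with TH588, a log2 fold change of 0.76 (SE 0.10, adjusted p = 5.1e-05). For both genes the lowest treated library was well above the highest control library. The deposited model of HLA-B ended inside the HLA-C gene. Of its exon bases, 18.9% also lay in exons of other genes, but 1.1% in exons on the same strand, and 20.6% of the 50-base windows of its canonical transcript occurred in other genes of the table (6.8% for HLA-C). How reads shared between genes were counted was not given in the sources used here, and reads were aligned to the reference alleles rather than to those of A2780, so the division between these paralogs is uncertain.

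The bases just upstream of these 2 genes are shown because they rose together and carry the same set of known class I promoter elements. Each line gives the 250 bases before the annotated start, 5′ to 3′ on the coding strand, from RefSeq on GRCh38.p14. Capitals mark matches on either strand to the interferon response core (AANNGAAA), the CCAAT box (CCAAT), the cAMP response element half-site (TGACG) and the NF-kB consensus. HLA-B lies at chr6:31357180-31357429 and HLA-C at chr6:31272093-31272342.
HLA-B: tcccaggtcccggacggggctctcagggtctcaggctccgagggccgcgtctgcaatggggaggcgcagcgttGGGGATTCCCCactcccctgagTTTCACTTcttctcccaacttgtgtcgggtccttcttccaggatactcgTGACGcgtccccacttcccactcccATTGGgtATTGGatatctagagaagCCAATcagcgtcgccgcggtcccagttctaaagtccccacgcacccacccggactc
HLA-C: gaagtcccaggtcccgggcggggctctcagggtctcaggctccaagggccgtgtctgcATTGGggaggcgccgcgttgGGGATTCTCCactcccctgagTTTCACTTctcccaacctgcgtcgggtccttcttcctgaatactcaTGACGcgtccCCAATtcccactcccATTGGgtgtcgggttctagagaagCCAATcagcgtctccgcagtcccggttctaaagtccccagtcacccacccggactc
Both windows held 1 interferon core, 1 cAMP half-site and at least 1 NF-kB match, with 3 CCAAT boxes for HLA-B and 4 for HLA-C. Of 35116 promoters of the same length, 20.3% held the interferon core, 32.0% a CCAAT box, 21.2% the cAMP half-site and 9.96% an NF-kB match. A match describes the letters and was not measured as a bound site here.

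HLA-E and HLA-F encode nonclassical heavy chains. HLA-E (ENSG00000204592, chr6:30489467-30494205, plus strand), the ligand of the NKG2A receptor of natural killer cells, had 50.4, 52.5 and 56.7 CPM with DMSO and 69.1, 59.4 and 63.0 CPM with TH588. The groups did not overlap, but the rise was small, with a log2 fold change of 0.26 (SE 0.09, adjusted p = 0.024). It lost its call without DMSO replicate A (adjusted p = 0.0749) or B (adjusted p = 0.099). HLA-F (ENSG00000204642, chr6:29722775-29738528, plus strand) was near the limit of detection, with 47, 42 and 35 counts in the DMSO libraries and 17, 78 and 85 in the TH588 libraries. Scaled to the library, these were 0.572, 0.509 and 0.374 CPM against 0.635, 0.717 and 1.02 CPM, and the log2 fold change of 0.73 (SE 0.32) did not pass the test (adjusted p = 0.0742). It also shared 35.4% of its transcript's 50-base windows with other genes, and 28.5% of its exon bases lay in exons of other genes, all of them on the opposite strand.

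Of 12 class I pseudogenes in the table, whose sequence is close to that of the heavy chains, 4 were tested and 1 was higher (24.2% of all genes tested were). HLA-L rose from 2.54 ± 0.278 to 6.29 ± 0.899 CPM (log2 1.31, SE 0.15, adjusted p = 2.19e-05), and 5 pseudogenes had 0 counts in every library.

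B2M (ENSG00000166710, chr15:44711477-44718877, plus strand) encodes beta-2 microglobulin, without which heavy chains do not reach the cell surface. It had 188, 177 and 201 CPM with DMSO and 241, 186 and 230 CPM with TH588. TH588 replicate B lay inside the range of the controls. The log2 fold change of 0.22 (SE 0.10) did not pass the test (adjusted p = 0.0963), although it did without TH588 replicate B (0.32, adjusted p = 0.00912) and with library size only (0.31, adjusted p = 0.0259).

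TAP1 (ENSG00000168394, chr6:32845209-32853978) and TAP2 (ENSG00000204267, chr6:32821833-32838780) encode the subunits of the transporter and lie next to each other on the minus strand of chromosome 6. TAP1 had 13.3, 12.3 and 13.9 CPM in the DMSO libraries and 61.2, 51.0 and 46.3 CPM in the TH588 libraries. Every treated library was thus more than 3 times the highest control, and the 3.99-fold rise (log2 2.00, SE 0.11, adjusted p = 8.35e-08) was exceeded by that of 431 of the genes tested. TAP2 had 3.01, 2.35 and 2.67 CPM with DMSO and 1.01, 1.69 and 1.14 CPM with TH588, from 247, 194 and 250 counts and from 27, 184 and 95 counts. It fell 2.03-fold (log2 -1.02, SE 0.22, adjusted p = 0.00202), and 800 of the genes tested had a lower log2 fold change. TH588 replicate A, the shallow library, was the highest of the 3 for TAP1 and the lowest for TAP2. Without it the log2 fold changes were 1.89 (adjusted p = 7.82e-08) and -0.90 (adjusted p = 0.0059). In the table, 9.5% of TAP1 exon bases overlap an exon of another gene on the opposite strand, and 32.3% of TAP2 exon bases overlap one on the same strand. Of the 50-base windows of the canonical transcripts, 21.3% for TAP1 and 35.3% for TAP2 occurred in other genes of the table, so both values are uncertain in the same way as those of HLA-B.

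The upstream bases of TAP1 (chr6:32853705-32853954) and TAP2 (chr6:32838740-32838989) are printed in the same way because these partners moved in opposite directions. The starts are those of RefSeq, and the gene models of the count table begin further upstream, so that all 250 bases of the TAP1 window and 41 of the TAP2 window lie inside the models (9 for HLA-B and 38 for HLA-C).
TAP1: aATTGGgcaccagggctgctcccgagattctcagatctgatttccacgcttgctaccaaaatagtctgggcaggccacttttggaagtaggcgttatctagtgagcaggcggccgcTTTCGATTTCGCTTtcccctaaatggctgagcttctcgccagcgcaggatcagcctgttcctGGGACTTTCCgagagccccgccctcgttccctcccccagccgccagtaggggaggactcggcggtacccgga
TAP2: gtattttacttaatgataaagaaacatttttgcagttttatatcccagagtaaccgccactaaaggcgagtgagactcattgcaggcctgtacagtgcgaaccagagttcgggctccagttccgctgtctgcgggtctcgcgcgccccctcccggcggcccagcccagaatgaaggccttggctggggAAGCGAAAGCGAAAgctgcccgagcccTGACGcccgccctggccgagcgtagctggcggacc
Both windows held 2 overlapping interferon cores. TAP1 had 1 NF-kB match and 1 CCAAT box, and TAP2 had neither but had 1 cAMP half-site. A half-site of the p53 consensus, present in 5.57% of the 35116 promoters, was found in none of the windows of the 8 genes of the 9 with an entry. At so low a share, no match in 8 windows says little. Sites outside the 250 bases were not searched, and p53 binding was not tested. The interferon core was also found in the windows of HLA-F, B2M and TAPBP, but not in that of ERAP1.

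TAPBP, which encodes tapasin (ENSG00000231925, chr6:33299694-33314387, minus strand) had 12.6, 12.1 and 13.5 CPM with DMSO and 20.8, 21.5 and 19.2 CPM with TH588. The 3 libraries of each group were close together, and the log2 fold change was 0.68 (SE 0.10, adjusted p = 0.000127). ERAP1, the trimming peptidase (ENSG00000164307, chr5:96760810-96808100, minus strand) had 62.6, 63.9 and 62.7 CPM with DMSO and 86.8, 68.4 and 73.4 CPM with TH588. TH588 replicate A was the highest, and the log2 fold change of 0.27 (SE 0.09, adjusted p = 0.029) fell to 0.18 (adjusted p = 0.0497) without it. Leaving out DMSO replicate A, B or C ended the call (adjusted p = 0.0572, 0.0838 and 0.079).

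**Figure D2:**
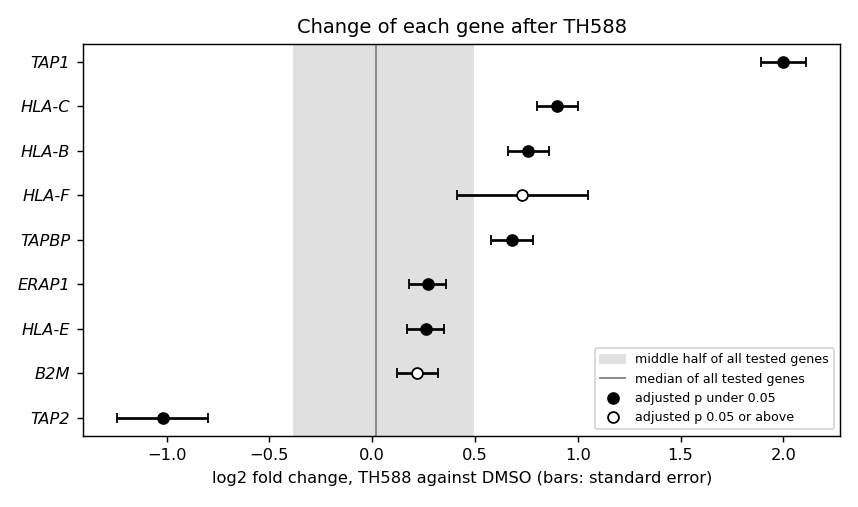
Log2 fold change of each gene (TH588 against DMSO, edgeR), with bars of 1 standard error, filled points for an adjusted p under 0.05, a grey band from the lower to the upper quartile of all genes tested (-0.38 to 0.49) and a grey line at their median. TAP1 at 2.00 and TAP2 at -1.02 are the extremes, and ERAP1, HLA-E and B2M lie inside the band.

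Levels can be compared between genes only per length. Per kilobase of all exon bases, HLA-C was the highest with DMSO at 105 ± 12.7 CPM per kb, followed by B2M at 31.0 ± 1.94, HLA-B at 24.7 ± 2.76, HLA-E at 17.9 ± 1.09 and ERAP1 at 7.94 ± 0.0931 CPM per kb (SD, n = 3). TAP1 was at 2.74 ± 0.166, TAPBP at 2.52 ± 0.131, TAP2 at 0.419 ± 0.0512 and HLA-F at 0.112 ± 0.0233 CPM per kb. Neighbours in this order did not overlap between libraries except TAP1 with TAPBP, and within each DMSO library TAP1 was above TAPBP. With TH588 the order became HLA-C at 196 ± 13.1, HLA-B at 41.8 ± 3.46, B2M at 36.0 ± 4.77, HLA-E at 21.5 ± 1.64, TAP1 at 11.0 ± 1.58, ERAP1 at 9.59 ± 1.20, TAPBP at 4.05 ± 0.233, TAP2 at 0.200 ± 0.0567 and HLA-F at 0.182 ± 0.0465 CPM per kb. TAP1 thus passed ERAP1 and HLA-B passed B2M in their means. The ranges of each pair overlapped across libraries, but within each TH588 library TAP1 was above ERAP1 and HLA-B above B2M. There the log2 ratio of B2M to HLA-B was -0.18, -0.48 and -0.01, so replicate C showed almost no difference. The ranges of TAP2 and HLA-F also overlapped, and the order of these genes differed between TH588 libraries. The place of B2M depends on the length used, because its 6089 exon bases exceed the 943 bases of its canonical transcript. With canonical transcript lengths, an alternative chosen after seeing the data, B2M was at 200.0 ± 12.5 and HLA-C at 170 ± 20.6 CPM per kb with DMSO, and 232 ± 30.8 and 318 ± 21.3 CPM per kb with TH588. HLA-B then stayed below B2M in both groups, at 49.0 ± 5.48 and 83.0 ± 6.87 CPM per kb. Of the summed level of the 4 heavy chains, per kilobase of all exon bases, HLA-C made up 71.0% ± 1.92 with DMSO and 75.5% ± 0.828 with TH588 (SD, n = 3 each), and HLA-E 12.2% ± 1.57 and 8.30% ± 0.702. With canonical transcript lengths the share of HLA-E was 8.75% ± 1.16 and 5.88% ± 0.508.

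The balance between partners was compared with ratios taken inside each library, which do not depend on scaling between libraries. For each of 5 pairs the groups did not overlap, and each gave p = 0.1 in an exact two-sided permutation test (adjusted over the 5 pairs, 0.1), the smallest value that 3 libraries against 3 allow. Counts of TAP1 were 4.43, 5.25 and 5.21 times those of TAP2 with DMSO and 60.6, 30.2 and 40.7 times with TH588. Per length, this log2 ratio moved from 2.72 ± 0.14 to 5.81 ± 0.51 (n = 3 each, exact permutation p = 0.1), an 8.5-fold shift, which was 2.82 without TH588 replicate A against 3.09 on the log2 scale with it. PSMB9, the immunoproteasome subunit whose gene lies head to head with TAP1, rose less. Its counts were 45, 58 and 54 with DMSO and 28, 105 and 96 with TH588 (log2 fold change 0.79, SE 0.26, adjusted p = 0.0233), and the log2 ratio of TAP1 to PSMB9 increased by 1.20. That call of PSMB9 was lost without DMSO replicate A (adjusted p = 0.061), DMSO replicate C (adjusted p = 0.0589) or TH588 replicate C (adjusted p = 0.0893). HLA-E fell by 0.50 and B2M by 0.55 relative to HLA-B on the log2 scale. HLA-B fell by 0.14 relative to HLA-C, from -2.09 ± 0.09 to -2.23 ± 0.04.

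**Figure D3:**
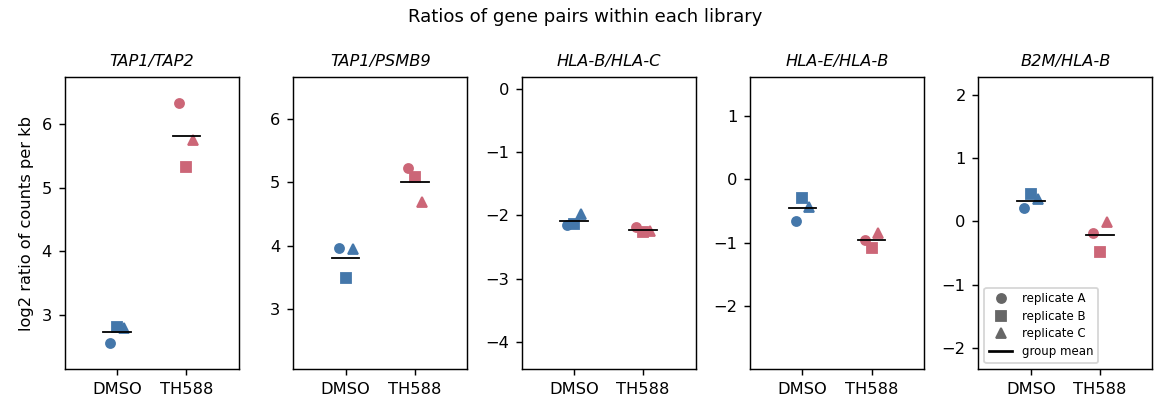
Log2 ratio of counts per kb for 5 gene pairs within each library, with DMSO in blue, TH588 in red, a symbol for each replicate letter, a black line at the group mean and the same height of axis in every panel. The TAP1 to TAP2 ratio moved by 3.09, the TAP1 to PSMB9 ratio by 1.20, and the other 3 ratios fell by 0.14 to 0.55.

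None of the general chaperones and partners of the loading complex was called higher, against 24.2% of all genes tested. Of 6 tested, 2 (33.3%) were lower, against 25.3% of all genes tested, and 4 were not called (median log2 fold change -0.16). CANX, the chaperone calnexin that holds new heavy chains, fell from 1003 ± 40.9 to 736 ± 89.4 CPM (log2 -0.45, SE 0.10, adjusted p = 0.00198), and this was not called with library size only (adjusted p = 0.0587). UGGT1, which tags misfolded glycoproteins for another round of folding, fell from 258 ± 9.28 to 190 ± 16.0 CPM (log2 -0.44, SE 0.08, adjusted p = 0.000812). Among 10 tested genes of peptide supply, 5 were higher and 4 lower, against 24.2% and 25.3% of all genes tested. The remaining 1 was not called (median of the 10, 0.03). The immunoproteasome subunit PSMB10 rose from 0.807 ± 0.0412 to 1.50 ± 0.0807 CPM (log2 0.90, SE 0.22, adjusted p = 0.00436), and PSME1, a subunit of the interferon-inducible proteasome activator PA28, rose from 54.7 ± 2.75 to 86.2 ± 9.17 CPM (log2 0.66, SE 0.09, adjusted p = 8.26e-05). PSME2, which encodes its PA28 partner and was named after its values were seen, fell from 128 ± 6.57 to 104 ± 7.54 CPM (log2 -0.29, SE 0.08, adjusted p = 0.0115). PSME3, the nuclear activator subunit, fell from 179 ± 7.56 to 94.4 ± 12.8 CPM (log2 -0.92, SE 0.10, adjusted p = 1.18e-05), and THOP1, a peptidase that destroys cytosolic peptides, fell from 73.0 ± 7.83 to 45.8 ± 7.99 CPM (log2 -0.67, SE 0.12, adjusted p = 0.000666). The counts of this list were unstable: 2 were higher without DMSO replicate A, 3 without DMSO replicate C or TH588 replicate C, and 2 were lower without DMSO replicate C.

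Of 15 listed genes that share the class I fold or act as stress ligands, 7 were tested. Among these, 5 (71.4%) were higher and none was lower, against 24.2% and 25.3% of all genes tested. The remaining 2 were not called (median of the 7, 0.93). MR1, which presents microbial vitamin B2 metabolites to MAIT cells, had 2.39, 2.34 and 2.50 CPM with DMSO and 11.0, 10.6 and 12.6 CPM with TH588, a log2 fold change of 2.25 (SE 0.13, adjusted p = 8.92e-08). PROCR, the endothelial protein C receptor, rose from 3.94 ± 0.46 to 20.9 ± 2.54 CPM (log2 2.41, SE 0.13, adjusted p = 8.35e-08). FCGRT, the heavy chain of the neonatal Fc receptor, rose from 4.65 ± 0.625 to 14.3 ± 2.37 CPM (log2 1.63, SE 0.15, adjusted p = 3.18e-06), and HFE, a regulator of iron uptake, from 11.4 ± 0.427 to 21.8 ± 3.64 CPM (log2 0.93, SE 0.13, adjusted p = 6.96e-05). In none of these 4, named for the largest called changes of the list, did the groups overlap. The groups did not overlap for 5 of the 7 tested. Over all genes tested, 28.7% had every TH588 library above every DMSO library and 29.0% had every one below. MR1, FCGRT and HFE use beta-2 microglobulin, and PROCR does not. CD1D and RAET1L had 0 counts in every library, with 3 counts, the limit that a count of 0 allows in a library, at 0.0276 to 0.112 CPM.

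Of 19 tested regulators of class I transcription, 6 (31.6%) were higher and 7 (36.8%) lower, against 24.2% and 25.3% of all genes tested. The remaining 6 were not called (median of the 19, -0.10). RFX5, a subunit of the complex that binds the X box of MHC promoters, rose from 61.7 ± 3.45 to 160 ± 14.7 CPM (log2 1.38, SE 0.09, adjusted p = 2.46e-07). The other subunits, named after their values were seen, went in opposite directions. RFXAP fell from 4.87 ± 0.443 to 2.66 ± 0.424 CPM (log2 -0.90, SE 0.16, adjusted p = 0.000504). RFXANK rose from 86.1 ± 5.93 to 109 ± 7.96 CPM (log2 0.34, SE 0.09, adjusted p = 0.00629). The NF-kB genes RELB (log2 1.17, SE 0.14, adjusted p = 2.66e-05) and NFKB2 (log2 0.98, SE 0.09, adjusted p = 1.96e-06) rose to 11.4 ± 1.47 and 35.4 ± 1.74 CPM. NFKB1 and RELA, named after their values were seen, did not rise. NFKB1 fell from 85.6 ± 1.02 to 71.4 ± 4.86 CPM (log2 -0.26, SE 0.08, adjusted p = 0.0156), and RELA was not called (log2 -0.10, SE 0.08, adjusted p = 0.37). EZH2, the methyltransferase of the Polycomb complex that is known to silence MHC genes in some tumors, fell from 129 ± 4.07 to 68.4 ± 2.43 CPM (log2 -0.92, SE 0.08, adjusted p = 1.24e-06). NLRC5, the class I transactivator, and IRF1, which were named after their values were seen, were low and not called, at 2.40 ± 0.227 and 2.05 ± 0.312 CPM for NLRC5 (log2 -0.22, SE 0.18, adjusted p = 0.348) and at 1.55 ± 0.0644 and 1.88 ± 0.444 CPM for IRF1 (log2 0.24, SE 0.21, adjusted p = 0.362).

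Of 12 tested genes of the interferon receptors and their signalling, 2 were higher and 2 lower, against 24.2% and 25.3% of all genes tested. The remaining 8 were not called (median of the 12, -0.08). STAT2 rose from 22.9 ± 2.19 to 54.6 ± 3.56 CPM (log2 1.25, SE 0.09, adjusted p = 6.64e-07), and PTPN2, a phosphatase that switches off this signalling, fell from 58.3 ± 2.23 to 44.4 ± 5.92 CPM (log2 -0.40, SE 0.10, adjusted p = 0.00471). The count higher was 1 without DMSO replicate A, DMSO replicate C, TH588 replicate A or TH588 replicate C, and the count lower was 1 without DMSO replicate A, DMSO replicate B or TH588 replicate C. Of 33 interferon-stimulated genes, 22 were tested, and 6 of these were not called (median of the 22, 0.93). Another 14 (63.6%) were higher and 2 (9.09%) lower, against 24.2% and 25.3% of all genes tested. Among the 14, IFIT2, IFITM1 and TRIM22, named after their values were seen, had at most 16 counts in any DMSO library. These passed the filter on low counts through the TH588 libraries, which left little room for a call other than higher. IFI35 rose from 2.68 ± 0.347 to 8.55 ± 0.816 CPM (log2 1.68, SE 0.14, adjusted p = 1.72e-06) and IFIT1, which binds viral RNA, from 2.19 ± 0.342 to 6.06 ± 1.27 CPM (log2 1.48, SE 0.18, adjusted p = 3.11e-05). IFITM2 and IFI6 rose by 1.25 and 1.04 on the log2 scale (SE 0.15 and 0.13, adjusted p = 2.83e-05 and 4.04e-05). MX1, MX2 and OAS1 had 0 counts in all 6 libraries. The 2 genes called lower, named after their values were seen, were well detected. SAMHD1 fell from 86.6 ± 2.99 to 50.3 ± 1.32 CPM (adjusted p = 4.19e-06) and OAS3 from 12.6 ± 1.07 to 8.17 ± 1.38 CPM (adjusted p = 0.00269).

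Of 12 tested genes listed for class I membrane turnover, 5 (41.7%) were higher and 2 (16.7%) lower, against 24.2% and 25.3% of all genes tested. The remaining 5 were not called (median of the 12, 0.12). TMEM129, a ubiquitin ligase of the endoplasmic reticulum, rose from 2.79 ± 0.336 to 5.58 ± 0.541 CPM (log2 1.0, SE 0.15, adjusted p = 0.000143), and SUSD6, which routes surface class I to lysosomes, from 4.12 ± 0.374 to 6.25 ± 0.3 CPM (log2 0.60, SE 0.13, adjusted p = 0.00214). DERL1, part of the channel that exports misfolded proteins, fell from 33.9 ± 2.24 to 22.2 ± 1.90 CPM (log2 -0.62, SE 0.09, adjusted p = 0.000171). MARCHF9, a membrane ubiquitin ligase, was called higher (log2 0.81, SE 0.28, adjusted p = 0.0299) with groups that overlapped, and lost its call without DMSO replicate A (adjusted p = 0.0883) or B (adjusted p = 0.0779) or TH588 replicate B (adjusted p = 0.103) or C (adjusted p = 0.0935). MARCHF4 had 0 counts in every library.

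**Figure D4:**
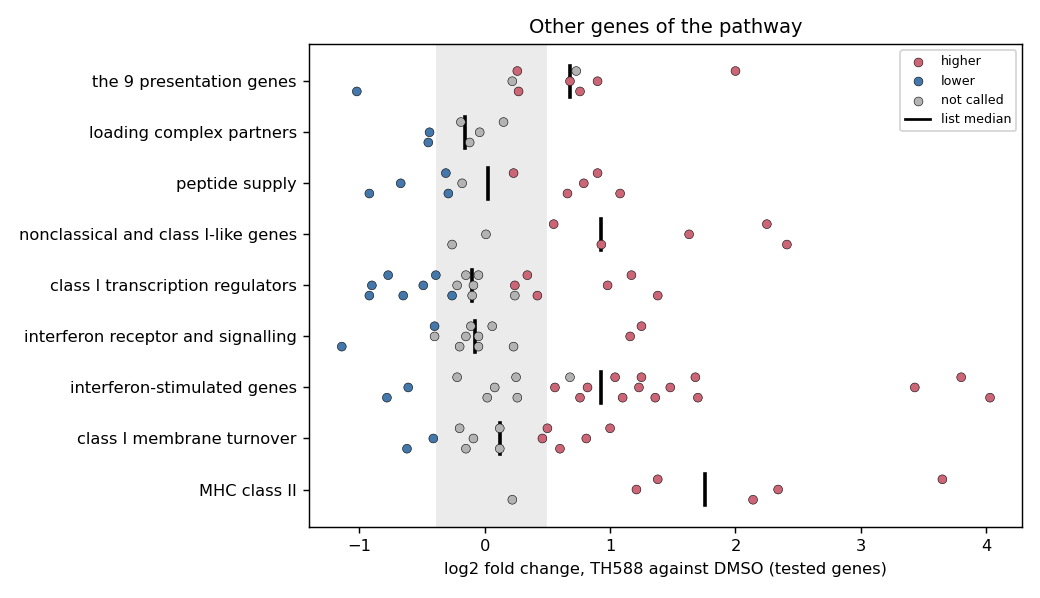
Log2 fold change of every tested gene in the 9 presentation genes and in 8 lists of related genes, colored red where called higher, blue where called lower and grey where not called, with a black line at each list's median and a grey band from the lower to the upper quartile of all genes tested. Medians were 0.68 for the 9 genes and 0.93 for both the class I-like and the interferon-stimulated genes, against -0.16 for the loading complex partners and -0.10 for the regulators.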

How the data were processed

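Per the labels and methods, polyA RNA was prepared with a TruSeq RNA kit, and the authors aligned reads with TopHat to GRCh38 and counted them per gene with featureCounts 1.4.6. The deposited values are raw counts, not normalized. UCSC gene models are named in the methods, but the table holds Ensembl identifiers. Strand setting and handling of reads shared between genes were not given in the sources used here. Total counts ranged from 28537837 to 99074175, so that 3 counts, the limit of a count of 0, were 0.0276 to 0.112 CPM, for counting error only.

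Counts were compared with edgeR 4.0.16 (TMM, default filter, quasi-likelihood test, Benjamini-Hochberg over 15844 genes) in R 4.3.3, tested first on simulated data. CPM use TMM library sizes. SE is the log2 fold change divided by the root of F. Members and gene lists were chosen with earlier results of these data known. Of 182 listed symbols, 181 matched. All 9 members are named, with up to 4 genes per list (those with the largest called changes at a mean log2 CPM of at least 0), genes of the 5 ratios and genes at 0 counts. Replicate pairs differed by more than sampling noise (chi-square per degree of freedom 25.2 to 179.9). The libraries are stated to be biological triplicates. Motifs were searched on both strands of RefSeq promoters; HLA-E had no entry. Alternatives were other normalizations, filters and thresholds, DESeq2 1.42.0, each library left out and a replicate block.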

Additional observations from a re-analysis of the deposited data

How the results depend on the processing

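No call among the 9 genes reversed under any alternative run. HLA-B, HLA-C, TAP1, TAP2 and TAPBP kept their calls in all of them, with log2 fold changes of 0.67 to 0.86, 0.83 to 1.02, 1.89 to 2.11, -1.30 to -0.90 and 0.65 to 0.79. The 9 held 4 to 7 genes called higher and 1 called lower throughout. Over all genes, at an adjusted p under 0.05, the count higher ran from 3381 without TH588 replicate C to 4248 with library size only. The count lower ran from 2786 with library size only to 4033 without TH588 replicate A. At an adjusted p under 0.01, 4 of the 9 were higher and 1 lower, against 2746 and 3085 of the 15844 genes tested. The weakest calls were HLA-E (adjusted p 0.00742 to 0.099) and ERAP1 (0.00606 to 0.0838), and HLA-F passed only with at least 10 counts required in every library (0.76, adjusted p = 0.046), within a range of 0.046 to 0.308. B2M ranged from 0.15 to 0.32 (adjusted p 0.00912 to 0.281). Leaving out a library moved the TAP1 to TAP2 log2 ratio between 2.82 and 3.33. The median of all genes tested was 0.126 with library size only and 0.141 with no filter, against 0.019. Replicate letters did not pair the samples (correlations of deviations -0.07, -0.08 and 0). The replicate block gave 7195 calls against 7852, of which 7129 were shared, and HLA-E (0.26, adjusted p = 0.0565), ERAP1 (0.26, adjusted p = 0.0564) and PSMB9 (0.79, adjusted p = 0.0509) were not called. With the block 3 genes of peptide supply and 1 of interferon signalling were higher. With library size only, 1 loading complex partner was higher and 1 lower, and 2 genes of peptide supply and 1 of interferon signalling were lower. The cause of these differences was not tested. Depth limits HLA-F, TAP2 and PSMB9, which have under 300 counts in every library.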

Other observations

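Genes of the MHC class II pathway, which presents peptides from outside the cell, were at low levels. Of 14 listed, 6 were tested, 5 (83.3%) were higher, against 24.2% of all genes tested, and 1 was not called (median log2 fold change 1.76). HLA-DMB and CTSS, among the 5 and named after their values were seen, had at most 11 counts in any DMSO library. They passed the filter on low counts through the TH588 libraries, which left little room for a call other than higher. The count and the median therefore say little about direction. The summed level of the 14 rose from a range of 1.90 to 2.12 CPM with DMSO to 7.91 to 8.82 CPM with TH588. Most of that came from HLA-DMA, a subunit of the peptide exchange factor of class II, which had 0.450, 0.303 and 0.491 CPM with DMSO and 5.31, 5.59 and 4.84 CPM with TH588 (log2 3.65, SE 0.21, adjusted p = 8.91e-08 by edgeR). Of the genes for the class II chains themselves, HLA-DRA, HLA-DQA1 and HLA-DQB1 had 0 counts in all 6 libraries. HLA-DRB1 and HLA-DPA1, named after their values were seen, were detected and called higher, from 0.298 ± 0.152 to 0.780 ± 0.113 CPM (log2 1.38, SE 0.39, adjusted p = 0.0106) and from 0.411 ± 0.125 to 0.949 ± 0.158 CPM (log2 1.21, SE 0.32, adjusted p = 0.00779). The count of 5 higher was 3 without DMSO replicate B, 2 without TH588 replicate B and 3 with at least 10 counts required in every library.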
